A study of Mus musculus with 121 samples.

Results

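Liver RNA of chow-fed mice without the targeted gene (KO, 5 mice) was compared with liver RNA of chow-fed heterozygous mice (HET, 8 mice). The libraries were chosen by their labels alone: 13 of the 75 liver libraries carry the labels liver, chow and KO or HET, among 121 labelled samples of liver and gonadal fat in all. All were C57BL/6 mice that received standard chow with 10% of calories from lipid from 8 weeks of age for 18 weeks. The KO mice carry the knockout genotype of the gene that the labels write as PEP, and the HET mice are its heterozygotes. The labels do not say how the allele was made or whether mice were littermates. Chow-fed wild types (WT, 5 mice) and mice on a high-fat diet (HFD, given as 45% in the labels: 8 WT, 11 HET, 9 KO) entered the same model and are used here as a reference. These mice were likewise on their diet from 8 weeks of age for 18 weeks. Each library is from the liver of 1 mouse, so p-values measure the spread between mice.

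The gene written as PEP was read here as Pepd, because the study is known to be about prolidase, the product of Pepd. Prolidase cuts dipeptides that carry proline or hydroxyproline at their C-terminal end, and so returns proline from broken-down collagen and dietary protein. The liver is also the main source of acute phase proteins: when cytokines such as interleukin-6 and interleukin-1 reach hepatocytes, these cells release serum amyloid A, haptoglobin, orosomucoid and lipocalin-2, and make metallothioneins. In that state hepatocytes commonly make less albumin and fewer drug-metabolizing and bile acid transport proteins, and resident macrophages (Kupffer cells) and infiltrating myeloid cells are a local source of the cytokines.

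Total counts ran from 1314912 to 3647967 over the 5 KO libraries, against 2563865 to 7337503 over the 8 of HET, so genes of low abundance were measured less precisely in KO. The labelled tissue matched its markers: the summed level of 14 hepatocyte markers was 63885 to 144324 CPM (counts scaled to library size) in KO and 117849 to 159531 in HET. The lowest sums were those of KO libraries 2 and 5. Skeletal muscle markers stood high in 4 of the 13 libraries, at 2845 CPM summed over 13 genes in HET library 1, 1406 in HET library 8, 370 in HET library 3 and 281 in KO library 5. The other 9 libraries had at most 2.57 CPM. Of the 13 muscle genes, Acta1 and Tnnc2 had 0 counts in all 13 libraries, the muscle-rich ones included. Mouse numbers in the labels fall into a 300 and a 500 series: KO libraries 2 and 5 and HET libraries 3, 5 and 7 are from the 500 series and the other 8 from the 300 series. The labels do not say what the series stand for.

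Pepd (ENSMUSG00000063931, chromosome 7, 34912379 to 35044708, plus strand, GRCm38) checked the labels first. Its level in KO libraries 1 to 5 was 1.84, 0.472, 2.28, 0.568 and 3.11 CPM, and in HET libraries it ran from 19.3 to 24.4 with a median of 21.2 CPM. Every KO library lay far below every HET library, and WT libraries lay above both groups at 43 ± 3.83 CPM (SD, n = 5). KO livers had 14.5-fold less Pepd RNA than HET livers (log2 -3.86 ± 0.38, SE; edgeR quasi-likelihood test, adjusted p = 2.8e-09). The contrast is therefore between livers with little and livers with an intermediate level of Pepd RNA.

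Over all 11064 genes that passed the filter, 1496 (13.5%) were called in KO against HET at an edgeR adjusted p under 0.05. Of these 875 were higher in KO (7.91% of genes tested) and 621 lower (5.61%), while the median log2 fold change of all genes was 0.01. The shares of 7.91% and 5.61% are the background for each count of list members given below. These calls borrow their estimate of spread from all 46 chow and HFD liver libraries. With the 13 compared libraries alone, 5.56% of 10212 genes were called, 370 higher (3.62%) and 198 lower (1.94%), and 534 of them (4.83% of the 11064) were also called in the pooled fit. The count was 474 without KO library 2, 705 without KO library 3, 711 without KO library 5, 954 without HET library 7 and 319 without the 4 libraries with much muscle RNA. In 98 genes (0.886%) all 5 KO libraries lay above all 8 HET libraries, and in 93 (0.841%) all lay below.

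The calls were uneven over the 2 series of mouse numbers. With KO and HET compared within each series, 2179 of 11612 genes tested were called in the 500 series (2 KO against 3 HET) and 1 in the 300 series (3 KO against 5 HET), which was Pepd, with 1137 at an unadjusted p under 0.05 there (edgeR). So, apart from Pepd, no gene described below passed the threshold within the 300 series alone. The difference between the series was itself called in 33 genes (1713 at an unadjusted p under 0.05). Within-series log2 values are given below for the leading genes. The replicates of a series are few, and the part of the series in the results was not tested further.

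Acute phase protein genes rose, and Saa2 and Lcn2 had the highest fold changes among the named genes. Of 26 genes, all tested, 21 were higher in KO and none was lower, against 7.91% of all genes called higher. The median log2 fold change of the 26 genes was 1.39. The 13-library fit called 14 of them, the fit without KO library 2 called 10, and that without the muscle-rich libraries called 9. The leading genes were the serum amyloids Saa2, Saa1 and Saa3, lipocalin-2 (Lcn2), the orosomucoids Orm2, Orm3 and Orm1, and haptoglobin (Hp).

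Serum amyloid A proteins are small apolipoproteins carried on high-density lipoprotein during inflammation. Saa1 and Saa2 lie head to head on chromosome 7, and the 250 bases before their starts are shown because both genes moved together and because the sequences are near copies, which makes the split of short reads between the genes uncertain. They are taken from RefSeq on GRCm38.p6, 5′ to 3′ on each gene's strand. RefSeq starts can differ from the gene coordinates given elsewhere in the text, and the Saa2 window ends inside the gene span given below. Capitals mark the only match to TTNNGCAA on either strand, a short form of the palindrome bound by C/EBP factors; 9.56% of 32851 mouse promoter windows of this length hold such a match.
Saa1, chr7:46742981-46743230, minus strand: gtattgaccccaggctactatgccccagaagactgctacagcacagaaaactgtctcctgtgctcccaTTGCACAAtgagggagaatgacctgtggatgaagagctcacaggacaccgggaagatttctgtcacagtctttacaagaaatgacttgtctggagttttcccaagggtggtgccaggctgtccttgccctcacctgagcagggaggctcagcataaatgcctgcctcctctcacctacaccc
Saa2, chr7:46751583-46751832, plus strand: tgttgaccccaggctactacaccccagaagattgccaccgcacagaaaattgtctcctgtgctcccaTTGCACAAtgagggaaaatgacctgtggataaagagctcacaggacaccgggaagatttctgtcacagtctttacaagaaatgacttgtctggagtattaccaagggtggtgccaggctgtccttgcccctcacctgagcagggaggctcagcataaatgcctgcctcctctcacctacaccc
Both carry it as TTGCACAA, read on the other strand, with its first base 182 bases before the start in Saa1 and 183 in Saa2. Aligned over 251 columns, the stretches are 94.8% identical. The window of Saa3 holds 1 match as well and is 52.2% identical to that of Saa1.

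Saa2 (ENSMUSG00000057465, chromosome 7, 46751790 to 46754313, plus strand) stood at 23.2, 20089, 3685, 28.7 and 15696 CPM in KO libraries 1 to 5. In HET it ran from 6.22 to 315 with a median of 20.7 CPM. KO libraries 2, 3 and 5 lay far above the highest HET library, number 6, while KO libraries 1 and 4 lay inside the HET range. The fold change was 145 (log2 7.18 ± 1.39, edgeR adjusted p = 0.00069), with log2 differences of 3.93 within the 300 series and 10.39 within the 500 series. Saa1, at 72.8, 18747, 4627, 57.1 and 15944 CPM in KO and from 18.7 to 734 with a median of 32.2 CPM in HET, also had KO libraries 2, 5 and 3 as the highest, in that order (log2 6.04 ± 1.26, edgeR adjusted p = 0.0013).

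Saa3 (ENSMUSG00000040026, chromosome 7, 46711998 to 46715700, minus strand), which macrophages and fat also make, differed from these in that the groups did not overlap. Its KO values were 14, 200.5, 61.1, 12.8 and 158 CPM, and its HET values ran from 1.74 to 7.74 with a median of 4.4 CPM. All 5 KO libraries, numbers 1 and 4 included, lay above all 8 HET libraries. It was 20-fold higher in KO (log2 4.32 ± 0.55, edgeR adjusted p = 3.3e-06). Within the 300 series the log2 difference was 2.28 and within the 500 series 6.38.

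Lcn2, which binds bacterial iron carriers, was at 9.56, 1880.3, 522, 6.82 and 1918 CPM in KO against HET values from 1.84 to 53.5 with a median of 3.45 CPM. The 3 KO libraries that were high for Saa2 were again high, and the 53.5 CPM of HET library 6 lay above KO libraries 1 and 4. The fold change was 83.6 (log2 6.38 ± 1.16, edgeR adjusted p = 0.00035). Orm2, a plasma carrier of drugs and lipids, stood at 37.5, 2249.7, 917, 23.6 and 2427 CPM in KO and from 12.2 to 98 with a median of 20.7 CPM in HET (log2 5.28 ± 0.86, edgeR adjusted p = 0.00013).

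Hp, which binds free haemoglobin, was abundant in every liver. Its KO levels were 2816, 20899, 17899.7, 2335 and 17585 CPM and its HET levels ran from 1433 to 4560.3 with a median of 2027 CPM. The same 3 KO libraries lay above all HET libraries, and the other two lay within the HET range. KO livers had 5.26-fold more on average (log2 2.40 ± 0.38, edgeR adjusted p = 0.00010; 1.5 in the 300 and 3.39 in the 500 series). Further down the list, the haem carrier hemopexin (Hpx, log2 1.82), the fibrinogen-like Fgl1 (2.07), the endotoxin-binding Lbp (1.49) and the fibrinogen chains Fga (0.82), Fgb (0.75) and Fgg (0.72) were also called higher. Crp at 0.04, Hamp at 0.12, Serpina3m at 0.29, Serpina3n at 0.83 and Itih4 at 0.77 were not called. Among 22 tested complement and coagulation genes, only C4b was called, at log2 0.78 ± 0.21 (edgeR adjusted p = 0.011).

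**Figure D1:**
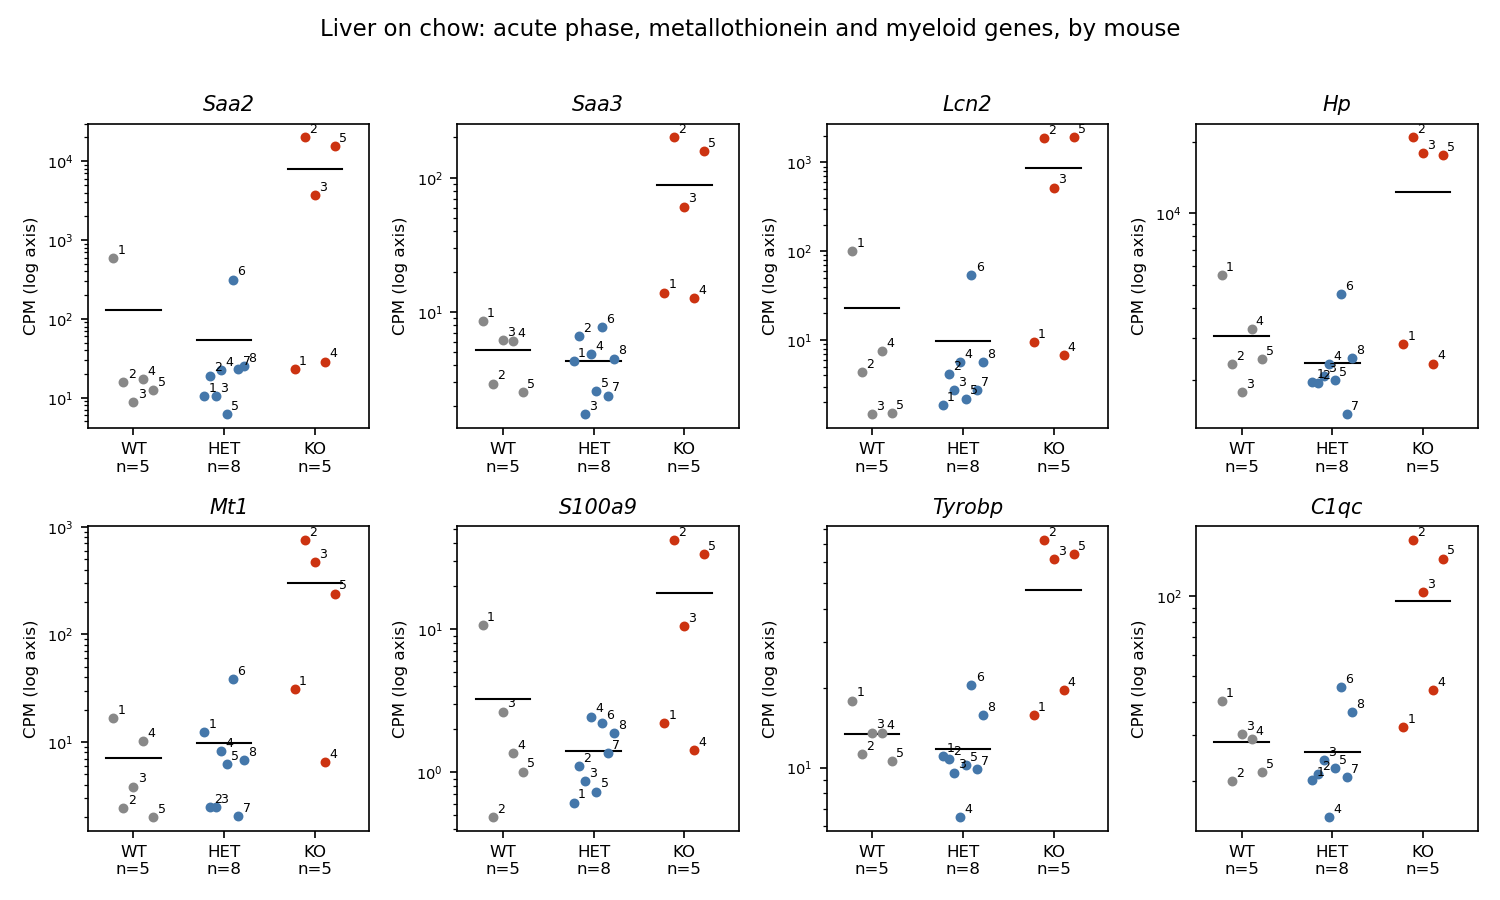
Levels of 8 genes that were higher in KO livers (Saa2, Saa3, Lcn2, Hp, Mt1, S100a9, Tyrobp, C1qc), in CPM on a log axis. Each point is 1 chow-fed mouse, marked with its replicate number, in WT (5), HET (8) and KO (5), and the line is the group mean. KO mice 2, 3 and 5 stand above all HET mice in each panel, whereas KO mice 1 and 4 do so only for Saa3.

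Metallothioneins, small proteins that bind zinc and copper, rose in the same libraries. The list of metallothionein and metal-handling genes had 11 tested members, of which 3 were called higher, Mt2, Mt1 and haem oxygenase Hmox1, and none lower. Over all genes 7.91% were called higher. Mt2 was at 27.2, 602, 405, 2.56 and 182 CPM in KO and from 0.366 to 27.6 with a median of 1.58 CPM in HET (45.8-fold, log2 5.52 ± 1.10, edgeR adjusted p = 0.00090). Mt1 was at 30.9, 752, 467, 6.54 and 239 CPM in KO and from 2.04 to 38.5 with a median of 6.49 CPM in HET (29.5-fold, log2 4.88 ± 0.93, edgeR adjusted p = 0.00060). KO libraries 2, 3 and 5 exceeded every HET library for both genes, HET library 6 was the highest of its group, and KO libraries 1 and 4 lay inside the HET range.

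The 250 bases before the RefSeq starts of both genes are shown because the genes moved together. The windows share less sequence than those of Saa1 and Saa2 (48% identity over 304 aligned columns). Capitals mark matches on either strand to TGCACNC or TGCGCNC, the core of the metal response element, which 21.4% of the 32851 promoter windows hold at least once. Sequences are again the 250 bases before each start from RefSeq on GRCm38.p6.
Mt2, chr8:94172368-94172617, plus strand: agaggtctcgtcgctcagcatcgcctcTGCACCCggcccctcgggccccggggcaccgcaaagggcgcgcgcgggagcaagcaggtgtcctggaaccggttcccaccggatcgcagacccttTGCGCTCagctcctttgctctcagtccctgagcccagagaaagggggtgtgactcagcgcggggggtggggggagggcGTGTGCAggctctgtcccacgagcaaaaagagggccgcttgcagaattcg
Mt1, chr8:94178839-94179088, plus strand: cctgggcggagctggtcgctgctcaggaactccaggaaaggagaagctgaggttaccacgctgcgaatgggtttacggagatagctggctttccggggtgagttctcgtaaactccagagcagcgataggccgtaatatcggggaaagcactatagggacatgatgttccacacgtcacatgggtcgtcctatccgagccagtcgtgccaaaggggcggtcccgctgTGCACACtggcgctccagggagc
Mt2 has 3 matches in its window, and Mt1 has 1, with its first base 23 bases before the RefSeq start. The Mt1 window runs past 94179082, the gene start in the annotation that gave the other gene coordinates. The Mt2 window ends before its gene start there, 94172664. Sequence beyond the windows was not searched, so these are not counts over whole promoters. Hmox1, at 56.4 ± 29.9 CPM in KO (SD, n = 5) and 27.7 ± 9.4 in HET (n = 8), was higher by log2 1.00 ± 0.26 (edgeR adjusted p = 0.0098). The ferritin genes Fth1 and Ftl1 had log2 fold changes of -0.01 and 0.15 and were not called.

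Genes of acute phase signalling rose to a smaller extent, with 8 of 18 tested members higher, none lower and a median log2 fold change of 0.72. They were the cytokine feedback inhibitor Socs3 (log2 2.37 ± 0.58, edgeR adjusted p = 0.0062), the receptor-pathway kinase Irak3 (1.98), the interleukin-1 receptor Il1r1 (1.49), the NF-kappaB partner Bcl3 (1.18), the transcription factors Cebpb (1.14) and Stat3 (0.69), and the NF-kappaB inhibitors Tnfaip3 (0.97) and Nfkbia (0.46). Socs3 was at 10.3, 49.5, 54.7, 3.7 and 50.5 CPM in KO, and HET values ran from 2.9 to 19 with a median of 4.37 CPM. KO libraries 1 and 4 were inside the HET range. The 13-library fit called 3 of the 18, the fit without KO library 2 called 1, and edgeR without the muscle-rich libraries called 0, with 6 at an unadjusted p under 0.05.

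Of 12 tested cytokines and chemokines, 5 were higher in KO and none lower, with a median log2 fold change of 1.19. Il1b, the inflammatory cytokine interleukin-1 beta, was at 1.84, 19.8, 11.9, 1.71 and 26.4 CPM in KO and from 0 to 3.37 with a median of 2.2 CPM in HET (log2 2.41 ± 0.47, edgeR adjusted p = 0.00071). KO libraries 1 and 4 lay within the HET range. The myeloid chemokine Ccl6 (log2 2.16 ± 0.37), the macrophage growth factor Csf1 (1.07 ± 0.22), Tgfb1 (1.00) and Cxcl14 (2.01) were the other four called. Il6, Tnf, Ccl2 and 5 other members were below the count filter.

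Macrophage markers rose in most cases. Of 27 tested genes 23 were called higher and none lower, against 7.91% of all genes called higher, with a median log2 fold change of 1.43, and 18 were also called in the 13-library fit. Their level summed over the 28 listed genes was 805 to 3507 CPM in KO and 379 to 1311 CPM in HET, with KO libraries 2, 3 and 5 above all HET libraries (log2 difference 1.30; two-sided exact permutation test over 1287 assignments, p = 0.00777, adjusted 0.0466 over 12 marker lists). In bulk RNA, fewer cells of a type and less RNA per cell cannot be told apart, and the same holds for increases. Neither was measured here.

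Tyrobp, the adaptor of activating receptors on myeloid cells, was at 15.8, 72.6, 61.6, 19.6 and 64.4 CPM in KO, and HET values ran from 6.52 to 20.6 with a median of 10.5 CPM. The lowest KO libraries, numbers 1 and 4, lay above the HET median but below HET library 6. The gene was 3.77-fold higher (log2 1.92 ± 0.26, edgeR adjusted p = 1.6e-05), by 1.21 within the 300 and 2.79 within the 500 series. The complement subunits C1qc and C1qa, made by macrophages, were at 32, 163, 104, 44.1 and 139 CPM and 34.9, 169, 97.1, 44.6 and 136 CPM in KO. Their HET values ran from 14.7 to 45.3 with a median of 21.8 CPM and from 17.1 to 51.3 with a median of 22.6 CPM (log2 1.85 ± 0.26 and 1.75 ± 0.27). KO library 1 was the lowest KO library for both.

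Within the macrophage list, the Kupffer cell genes Clec4f (log2 1.28 ± 0.22), Vsig4 (1.33), Timd4 (1.39) and Cd5l (1.66) were called, as were the monocyte chemokine receptor Ccr2 (2.07), the endotoxin co-receptor Cd14 (2.67) and the scavenger receptor Marco (2.7). Clec4f was at 126, 401, 216, 137 and 360.2 CPM in KO and from 64.4 to 163 with a median of 92.3 CPM in HET. Mrc1 (-0.08), Cd163 (0.81), Cx3cr1 (0.41) and Ms4a7 (0.79) were not called, and Itgam was at 0 counts in all 13 libraries. The muscle genes Acta1 and Tnnc2 were at 0 even in muscle-rich libraries, so 0 counts need not mean absent RNA. Of 10 lipid-associated macrophage genes, 3 were called higher: galectin-3 (Lgals3, log2 1.95 ± 0.39), the lipid receptor Trem2 (2.34 ± 0.68) and Fabp5 (1.41 ± 0.44). Gpnmb (0.99) and Spp1 (0.56), markers of the same state, were not called. The Fabp5 call was lost in 10 of 26 refits (other settings, or libraries left out), among them the 13-library fit and those without KO library 2 or 5 or HET library 1 or 7. The Trem2 call was lost without KO library 2 or 3.

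Neutrophil genes were low in most livers. Both tested markers of 11 listed were higher, the calcium-binding S100a9 and the growth factor receptor Csf3r, and the other 9 fell below the count filter. S100a9, at most 2.44 CPM in HET, passed the filter through libraries where it was high, KO 2, 3 and 5 among them. That both tested markers were higher is therefore partly set by the filter. S100a9 was at 2.21, 42, 10.5, 1.42 and 33.4 CPM in KO, with HET values from 0.613 to 2.44 with a median of 1.23 CPM (log2 3.57 ± 0.60, edgeR adjusted p = 0.00017). Csf3r was at 4.78, 42.9, 24.2, 6.54 and 39.6 CPM in KO, with HET values from 2.61 to 7.3 with a median of 3.89 CPM (log2 2.40 ± 0.36, edgeR adjusted p = 6.0e-05). Here too KO libraries 2, 3 and 5 exceeded every HET library. S100a9 was below the count filter of the 13-library fit, where Csf3r was called. Prtn3, a protease of neutrophil granules, had counts in 4 of 5 KO libraries (0.368, 31.6, 8.67, 0 and 34.2 CPM) and in 1 of 8 HET libraries, number 6. It too passed the filter only through its high libraries. The neutrophil sum was 8.81 to 138 CPM in KO and 4.35 to 11.7 in HET (exact permutation p = 0.00622, adjusted 0.0466).

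Lymphocyte genes gave few values to compare. None of 6 tested B cell and plasma cell markers was called (none at an unadjusted p under 0.05 in edgeR and none in DESeq2). Of 15 T and NK cell markers only Coro1a and Ptprc passed the filter, and Coro1a was called (log2 1.46 ± 0.42, edgeR adjusted p = 0.019). The Coro1a call was lost in the 13-library fit and without KO library 2, 3 or 5. Both are expressed by all leukocytes. No stellate cell marker of 13, no collagen or matrix gene of 28 and no cell cycle gene of 14 was called by edgeR, with 3, 2 and 1 at an unadjusted p under 0.05 and 1, 0 and 0 called by DESeq2.

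Antigen presentation genes were higher in KO for both classes. Of 7 tested class II genes 6 were called, with a median log2 fold change of 1.42. They were the peptide-loading genes H2-DMa (log2 1.75 ± 0.38) and H2-DMb1 (1.72 ± 0.41), H2-Ab1 (1.5 ± 0.36), H2-Aa (1.30), H2-Eb1 (1.28) and the invariant chain Cd74 (1.42). H2-Ab1 was at 34.9, 163, 61.6, 52.9 and 127 CPM in KO and from 15 to 60.6 with a median of 26.3 CPM in HET, and only KO libraries 2, 3 and 5 lay above HET library 6. The class II calls numbered 1 without KO library 2 and 0 without the muscle-rich libraries, where edgeR gave 6 an unadjusted p under 0.05.

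Of 11 class I genes 7 were called, with a median of 0.65. The peptide transporter Tap1 was at 48.1 ± 12 CPM in KO (SD, n = 5) and 25.8 ± 6.08 in HET (n = 8), with all 5 KO libraries above all 8 HET libraries (log2 0.89 ± 0.18, edgeR adjusted p = 0.0010). The immunoproteasome subunit Psmb9 (0.94 ± 0.21), which overlaps the start of Tap1 head to head on the other strand, and the loading factor Tapbp (0.72 ± 0.16) were called too. Without the muscle-rich libraries edgeR called 0 of the 11, with 7 at an unadjusted p under 0.05.

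Interferon-stimulated genes were called higher in 12 of 28 cases and lower in none, with a median of 0.52. The nucleic acid sensor Zbp1 was at 13.2, 34, 37.4, 14.5 and 34.2 CPM in KO and from 3.4 to 13.1 with a median of 6.53 CPM in HET (3.44-fold, log2 1.78 ± 0.32, edgeR adjusted p = 0.00036). All 5 KO libraries lay above the highest HET library, although KO library 1 did so by a small margin. Oas2 (log2 1.5 ± 0.34) and Bst2 (0.67 ± 0.15) were next by p-value. The classical markers Ifit1 (0.46), Ifit3 (0.13) and Rsad2 (0.17) were not called. Only 4 of the 28 were called in the 13-library fit and 1 without the muscle-rich libraries. Macrophage marker sums moved with all these immune genes, and their part in the results was not tested.

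**Figure D2:**
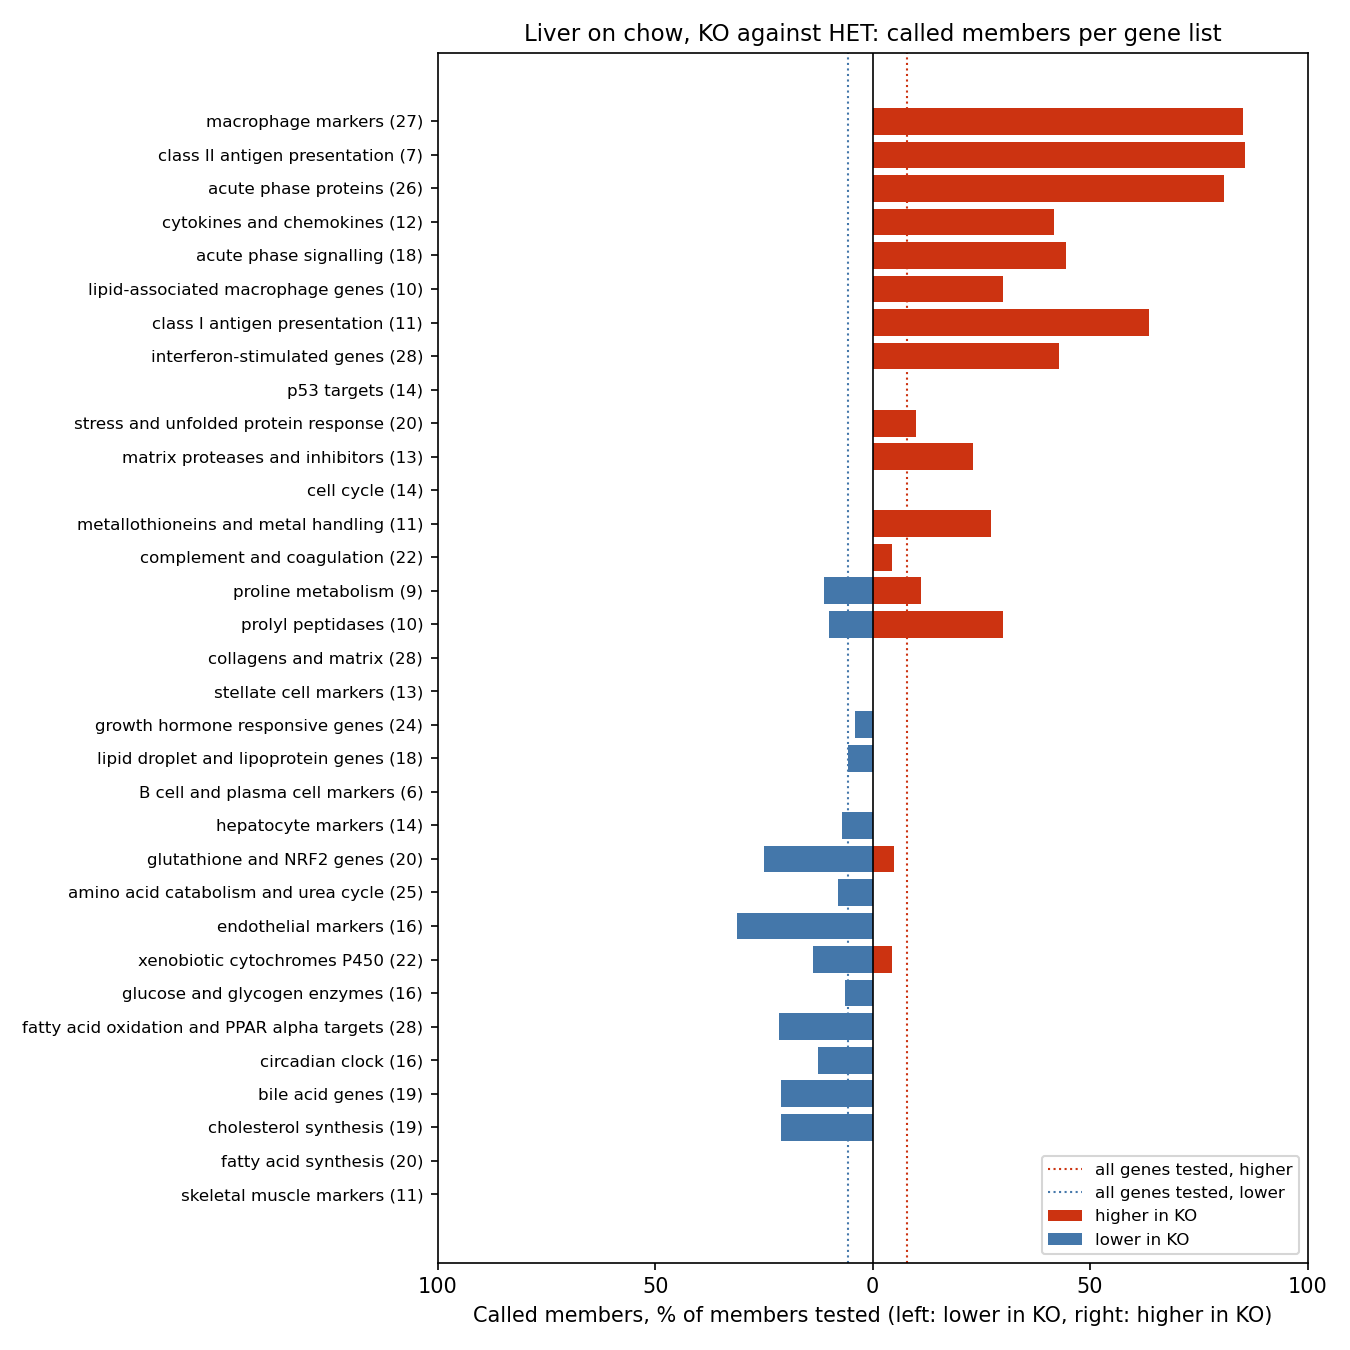
Percent of tested members called higher or lower in KO against HET, for gene lists with at least 5 tested members. The dotted lines give the percent of all 11064 genes called higher (7.91%) and lower (5.61%). Macrophage, class II and acute phase lists have the largest shares called higher.

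Genes that were lower in KO had smaller changes. For several of them the groups did not overlap, which was about as frequent on either side. All KO libraries lay below all HET libraries in 0.841% of genes tested, and above them in 0.886%. The first lower genes given here act in bile acid and steroid handling. Of 19 tested bile acid genes 4 were lower and none higher, with a median log2 fold change of -0.42, against 5.61% of all genes called lower. Akr1d1 (ENSMUSG00000038641, chromosome 6, 37530173 to 37568815, plus strand), the steroid 5-beta-reductase of bile acid synthesis, was at 165, 129, 187, 200.1 and 170.0 CPM in KO, and HET values ran from 299 to 442 with a median of 337 CPM. Every KO library was below every HET library, with library 2 the lowest and libraries 1 and 4 well below the HET range. It was 2.09-fold lower (log2 -1.06 ± 0.19, edgeR adjusted p = 0.00037), with -0.86 within the 300 and -1.44 within the 500 series.

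The organic anion pump Abcc2 was at 814, 620.3, 678, 1279.6 and 743 CPM in KO and from 1106 to 1954 with a median of 1389 CPM in HET (log2 -0.81 ± 0.15, edgeR adjusted p = 0.00035). KO library 4 lay within the HET range and the other four below it. The uptake carrier Slco1a4, at 21.3, 5.19, 58.4, 56 and 41.1 CPM in KO and from 46.4 to 142 with a median of 97.4 CPM in HET, was 2.59-fold lower (log2 -1.37 ± 0.34). The bile acid receptor Nr1h4 was lower by log2 -0.42. Cyp7a1, the rate-limiting enzyme of bile acid synthesis, at -0.99, and the bile salt pump Abcb11, at -0.18, were not called.

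The carboxylesterase Ces1e also separated the groups. Ces1e was at 237, 101, 163, 327 and 125 CPM in KO, and HET values ran from 425 to 554.7 with a median of 509.05 CPM (log2 -1.39 ± 0.21, edgeR adjusted p = 5.9e-05). KO library 4 came closest to the HET range, and library 2 was the lowest. Fmo4, a flavin-containing monooxygenase, was at 10.7, 6.6, 10.9, 7.39 and 7.76 CPM in KO and from 14.8 to 22 with a median of 17.4 CPM in HET (log2 -1.05 ± 0.23), again without overlap.

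Cholesterol synthesis genes were lower in 4 of 19 cases and higher in none, with a median of -0.44. Insig1, which retains the sterol sensor in the endoplasmic reticulum, was at 185, 209.9, 197, 207 and 216 CPM in KO, and HET values ran from 244 to 581 with a median of 407 CPM. The KO libraries lay within a narrow range below all HET libraries, of which number 1 was nearest (log2 -1.07 ± 0.26, edgeR adjusted p = 0.0063). Its within-series values were -0.99 and -1.23. Sc5d (-0.75 ± 0.22) and the sterol carrier Stard4 (-0.73) were also called, whereas Sqle (-0.04) and Hmgcs1 (-0.58) were not. The list had 5 members called in the 13-library fit and 1 without KO library 2 or without the muscle-rich libraries.

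**Figure D3:**
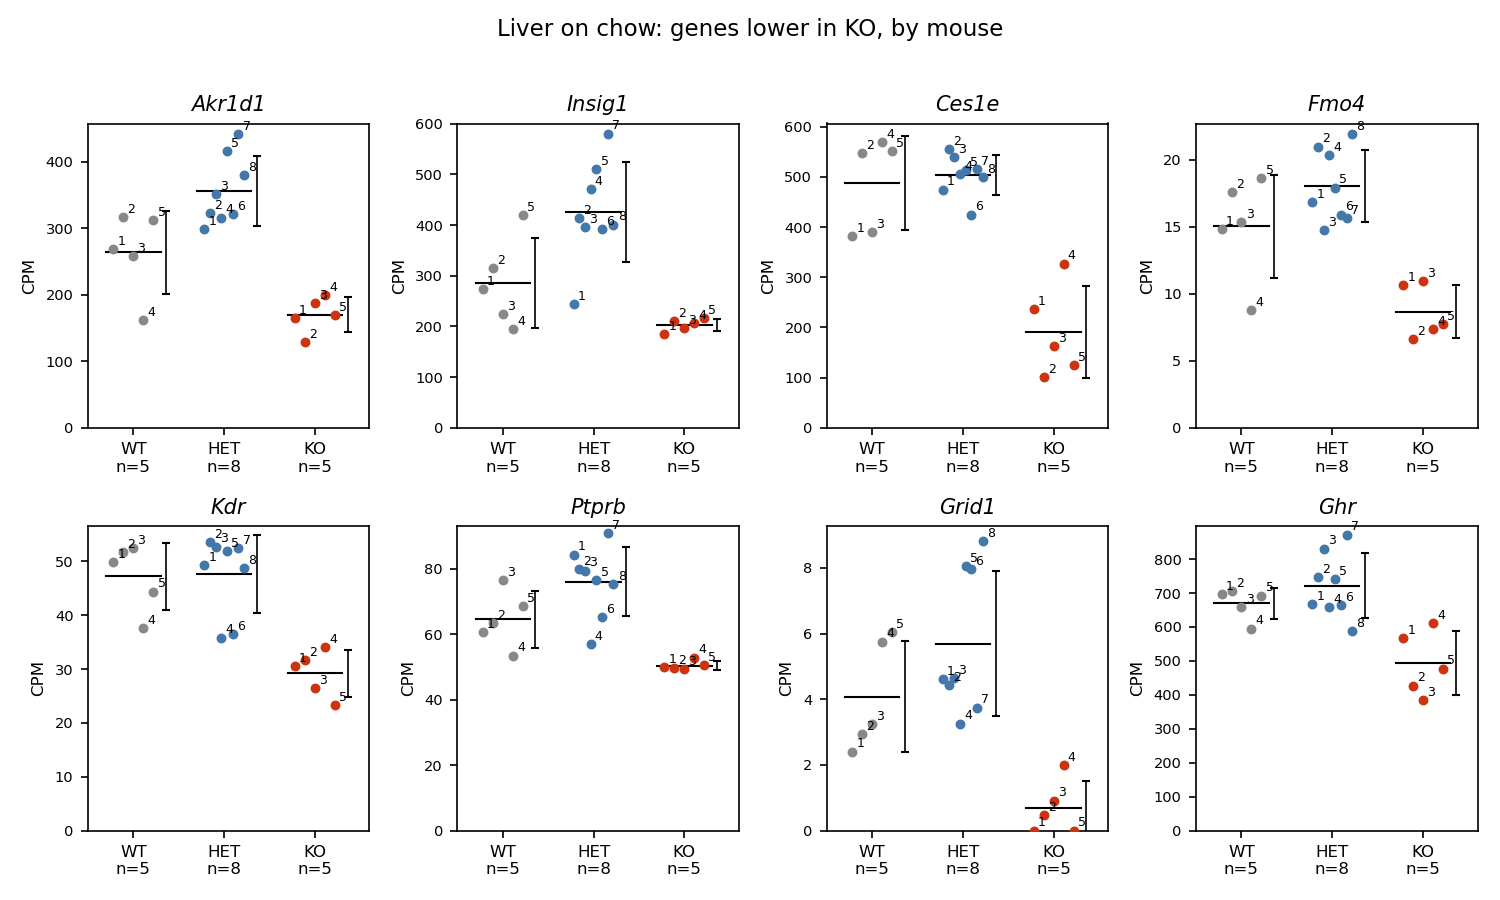
Levels of 8 genes that were lower in KO livers (Akr1d1, Insig1, Ces1e, Fmo4, Kdr, Ptprb, Grid1, Ghr), in CPM. Each point is 1 chow-fed mouse with its replicate number, the line is the group mean and the bar its SD, for WT (5), HET (8) and KO (5). All 5 KO mice lie below all 8 HET mice in each panel except Ghr, where 4 do.

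Fatty acid genes were mostly lower without passing the test. No member of the 20 fatty acid synthesis genes was called by edgeR (5 at an unadjusted p under 0.05, all lower, and 3 lower by DESeq2), and the median was -0.47. Elovl6, an elongase, was at log2 -1.14 ± 0.41 (edgeR adjusted p = 0.054) and Thrsp at -1.09 ± 0.49 (edgeR adjusted p = 0.12). Of 28 fatty acid oxidation and PPAR alpha genes 6 were lower and none higher, with a median of -0.36. The fatty acid omega-hydroxylase Cyp4a14 was at 44.9, 0.472, 10.9, 114 and 3.88 CPM in KO, and HET values ran from 33.3 to 515 with a median of 231 CPM. KO libraries 2, 3 and 5 lay below every HET library, and KO libraries 1 and 4 lay within the HET range, whose lowest member was library 3 (log2 -2.79 ± 0.68, edgeR adjusted p = 0.0056).

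Cyp4a10, its neighbour, had the KO libraries in the same order, at 123, 4.72, 15.1, 244 and 5.43 CPM in KO and from 106 to 568.9 with a median of 298 CPM in HET (log2 -1.91 ± 0.54). Its call was lost in the 13-library fit and without KO library 2, 3 or 5. The peroxisomal enzyme Ehhadh (log2 -0.88 ± 0.19), the receptor Ppara (-0.65) and the acyl-CoA dehydrogenases Acadm (-0.45) and Acadl (-0.38) were lower as well, while Cpt1a (-0.28) was not called. The 13-library fit called 2 of the 28. Among lipid droplet and lipoprotein genes 1 of 18 was called lower, about the share of all genes called lower (5.61%). It was the fatty acid transporter Cd36, at 46.7 ± 21.6 CPM in KO (SD, n = 5) and 98.5 ± 30.4 in HET (n = 8), a log2 fold change of -1.06 ± 0.36. The Cd36 call was lost in 11 of 26 refits, among them those without KO library 1, 2, 3 or 5 or HET library 1, 3, 5, 7 or 8.

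Of xenobiotic cytochromes P450, 3 were called lower and 1 higher, beside 5.61% and 7.91% of all genes. Of 22 tested, Cyp2c38 (log2 -1.66 ± 0.38), the retinoic acid hydroxylase Cyp26a1 (-1.31 ± 0.40) and Cyp3a25 (-0.99 ± 0.24) were lower, and Cyp2b10 was higher. Cyp2b10 was at 27.2, 15.1, 21.4, 73 and 19.4 CPM in KO, and HET values ran from 1.16 to 21.2 with a median of 3.12 CPM. Here KO library 4, low for the acute phase genes, was the highest, and KO libraries 2 and 5 lay below HET library 8 (log2 2.54 ± 0.85, edgeR adjusted p = 0.042). The Cyp2b10 call was lost with no filter on low counts, with robust dispersions and without KO library 2, 3, 4 or 5. It was also lost without HET library 1, 2, 3, 5, 6 or 7, and without the muscle-rich libraries. The Cyp26a1 call was lost in the 13-library fit and without KO library 2 or 4 or HET library 7. Cyp2b10 is outside the rule for named genes and is given because it was the only P450 called higher. Among 20 glutathione and NRF2 genes 5 were lower, with the transferases Gsta1 (log2 -1.86), Gsta2 (-1.23 ± 0.41) and Gsta3 (-0.54 ± 0.17), and Gstp2 was higher (0.95 ± 0.26). In the 13-library fit the adjusted p of Gsta2 was 0.097 and that of Gsta3 0.069.

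In other hepatocyte gene groups the share called lower was near the 5.61% of all genes called lower, so their calls are values of single genes. Of 25 amino acid and urea cycle genes 2 were lower, tryptophan dioxygenase Tdo2 (log2 -0.75 ± 0.18) and ornithine carbamoyltransferase Otc (-0.57 ± 0.15). Of 16 glucose and glycogen genes 1 was lower, the glucose transporter Slc2a2 (-0.94 ± 0.30, edgeR adjusted p = 0.032), which was at 478, 175, 34.2, 438 and 202 CPM in KO with HET values from 397.8 to 687 with a median of 473 CPM. Of 24 growth hormone responsive genes 1 was lower, the receptor Ghr itself (-0.55 ± 0.13, edgeR adjusted p = 0.0038), while Igf1 (-0.05) was not called. Of 14 hepatocyte markers 1 was lower, albumin (Alb), at 84862, 20904, 45972, 86670.4 and 23156 CPM in KO against HET values from 61149.9 to 100927 with a median of 82456 CPM (log2 -0.64 ± 0.21, edgeR adjusted p = 0.036). KO libraries 2, 3 and 5 lay below every HET library for Alb, and libraries 1 and 4 inside the HET range. The Alb call was lost in 12 of 26 refits, among them the 13-library fit and those without KO library 2, 3 or 5 or HET library 1, 2, 5, 7 or 8. The Slc2a2 call was lost in 8, among them the 13-library fit and those without KO library 2, 3 or 5 or HET library 5 or 7.

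Of 16 clock genes 2 were lower, beside 5.61% of all genes called lower. They were the clock outputs Nr1d2 (-0.66 ± 0.18, edgeR adjusted p = 0.012) and Tef (-0.75 ± 0.26, edgeR adjusted p = 0.050). The Nr1d2 call was lost without KO library 2 or 3. The Tef call was lost in 16 of 26 refits, 10 of which left out 1 library (KO 1, 2, 3 or 5, or HET 1, 2, 3, 5, 6 or 7).

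Some endothelial genes were lower in KO. Of 16 tested markers 5 were lower and none higher, with a median of -0.18. Kdr, the main receptor of vascular endothelial growth factor, was at 30.5, 31.6, 26.5, 34.1 and 23.3 CPM in KO, and HET values ran from 35.9 to 53.6 with a median of 50.7 CPM (log2 -0.69 ± 0.12, edgeR adjusted p = 0.00017). Ptprb, the vascular endothelial phosphatase, was at 50, 49.5, 49.3, 52.9 and 50.5 CPM in KO, and HET values ran from 57 to 90.9 with a median of 78 CPM (log2 -0.59 ± 0.11, edgeR adjusted p = 0.00065). Neither gene's groups overlapped. The angiopoietin receptor Tek (-0.67), Flt1 (-0.60) and Oit3 (-0.30) were the other calls (that of Tek was lost in the 13-library fit and without KO library 2 or 3), and the pan-endothelial Cdh5 (0.34) and Pecam1 (-0.31) and the sinusoidal Stab2 (0.03) were not called. The endothelial sum was 549 to 639.8 CPM in KO and 584.7 to 699.6 in HET (exact permutation p = 0.0186, adjusted 0.0746).

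Other peptidases with a preference for proline were measured for comparison. Of 10 tested proline-specific peptidases, Pepd was lower, and the lysosomal Dpp7 (log2 0.67 ± 0.16, edgeR adjusted p = 0.0051), the cytosolic Dpp9 (0.69 ± 0.20, adjusted p = 0.017) and the lysosomal Prcp (0.70 ± 0.21, adjusted p = 0.023) were higher. Dpp7 was at 34.9, 59.4, 41, 28.7 and 43.5 CPM in KO and from 19.4 to 29 with a median of 26.2 CPM in HET, with 4 of 5 KO libraries above all HET libraries. The Dpp7 call was lost without KO library 2, and the Dpp9 call without KO library 2 or 3. Prep (0.03) and Dpp4 (-0.32) were not called. Of 9 proline metabolism genes, the collagen prolyl hydroxylase subunit P4ha1 was higher (0.69 ± 0.22) and the hydroxyproline-breakdown enzyme Hoga1 lower (-0.38 ± 0.12). Over all genes 7.91% were called higher and 5.61% lower, so these are values of single genes. Neither P4ha1 nor Hoga1 was called in the 13-library fit, and proline dehydrogenase Prodh stood at -0.05. Of 13 matrix proteases and inhibitors, cathepsin S (Ctss, 1.46 ± 0.31), cathepsin Z (Ctsz, 0.69 ± 0.15) and Mmp14 (0.48 ± 0.17) were higher, beside 7.91% of all genes. The Mmp14 call (edgeR adjusted p = 0.050) was lost in 15 of 26 refits, among them RLE size factors, the 13-library fit and those without KO library 2, 3 or 5 or HET library 1, 2, 3, 5 or 7.

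Of 20 tested stress and unfolded protein response genes 2 were higher, against 7.91% of all genes called higher, the heat shock genes Hspa1b and Hsph1. Hspa1b was at 2.94, 56.1, 3.65, 6.25 and 11.6 CPM in KO, where library 2 alone was far above the rest, and from 1.23 to 5.3 with a median of 2.08 CPM in HET (log2 2.61 ± 0.47). Its call was lost without KO library 2. Hsph1 stood at log2 0.67 ± 0.22 (edgeR adjusted p = 0.037), and its call was lost in 14 of 26 refits, the 13-library fit included.

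Some named genes belonged to no list. Moxd1, a copper monooxygenase-like gene, was at 7.35, 415, 16.9, 1.71 and 130.4 CPM in KO and from 0 to 15.7 with a median of 3.09 CPM in HET (log2 4.11 ± 0.90), with KO libraries 2 and 5 far above the others. The growth-arrest gene Gadd45g was at 2.94, 11.8, 29.2, 1.42 and 11.6 CPM in KO and from 0.681 to 2.76 with a median of 1.65 CPM in HET (log2 2.74 ± 0.62), but WT libraries reached 20.4 CPM. Lower genes included the potassium channel Kcnb2 (-2.41 ± 0.61) and the glutamate receptor-like Grid1 (-2.77 ± 0.73), of which Grid1 did not overlap between groups at 0, 0.472, 0.912, 1.99 and 0 CPM in KO and from 3.26 to 8.82 with a median of 4.62 CPM in HET.

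Of the 12 genes with the largest falls, 7 were highest in the muscle-rich HET libraries. Pygm (muscle glycogen phosphorylase, log2 -4.13 ± 1.40), Ak1 (-3.89 ± 1.32), Slc2a4 (-3.17 ± 0.90), Myom1 (-3.04 ± 0.95), Srl (-2.90 ± 0.95), Tpm2 (-2.65 ± 0.83) and Lynx1 (-2.33 ± 0.76) passed the test. Pygm was at 0, 0, 0, 0 and 3.11 CPM in KO, and at 32.2, 4.93 and 14.6 CPM in HET libraries 1, 3 and 8 with at most 0.815 CPM in the other HET libraries. These are the libraries with high muscle marker sums given above. Without the 4 muscle-rich libraries Myom1 changed sign to log2 0.23 (edgeR adjusted p = 0.92). None of 11 tested muscle markers was itself called by edgeR or DESeq2, although 10 had an unadjusted p under 0.05, and their median log2 fold change was -3.93.

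Wild types serve as a second reference, and both contrasts use the same KO libraries, so their values are given side by side only. Between HET and WT edgeR called no gene (494 had an unadjusted p under 0.05), while DESeq2 called 1. Pepd itself was not called by edgeR there (log2 HET minus WT -0.997, edgeR adjusted p = 0.12). Yet its HET libraries, at 19.3 to 24.4 CPM, all lay below its WT libraries, at 40.5 to 49.8 CPM. The lack of edgeR calls therefore does not show that HET and WT livers were equal. KO minus WT was 5.92 for Saa2 and 3.93 for Saa3 on the log2 scale, beside 7.18 and 4.32 against HET. For Tyrobp it was 1.73 beside 1.92, for Ces1e -1.35 beside -1.39 and for Kdr -0.68 beside -0.69. Insig1 was closer to WT at -0.49 (edgeR adjusted p = 0.33) beside -1.07, and Akr1d1 at -0.63 (0.075) beside -1.06. The WT values of Insig1, 274, 314.5, 225, 195 and 421 CPM, overlapped the KO range. WT library 1 had the highest WT level of Saa2 at 586.6 CPM, above every HET library.

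The difference between KO and HET on chow was then set against that on HFD, in other mice. The test of the difference itself called 310 of 11064 genes (2.8%), 219 with a lower and 91 with a higher KO minus HET value on HFD. This count was 0 without chow KO library 2 (1668 at an unadjusted p under 0.05), 39 without KO library 5, 133 without KO library 3, 548 without KO library 1 and 675 without KO library 4. On HFD, KO against HET called 264 genes (2.39%). One HFD library labelled HET, number 8, had a KO-like Pepd level, and without it the difference was called in 344 genes.

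The acute phase and myeloid genes made up much of the lower side among named genes. Hp had a KO minus HET value of log2 0.07 ± 0.30 on HFD, against 2.40 ± 0.38 on chow, a difference of -2.33 ± 0.49 (edgeR adjusted p = 0.012). For Tyrobp the HFD value was 0.13 ± 0.21 and the difference -1.79 ± 0.34 (adjusted p = 0.010), and for S100a9 -0.23 ± 0.62 and -3.80 ± 0.88 (adjusted p = 0.014). Saa3 was also called on HFD, at 1.63 ± 0.46 (adjusted p = 0.047), with a difference of -2.69 ± 0.74 from its chow value. The leading chow genes Saa2 and Saa1 stood at 3.47 ± 1.00 and 3.00 ± 0.94 on HFD, not called there (edgeR adjusted p = 0.051 and 0.070). Their differences from chow were not called either (edgeR adjusted p = 0.17 and 0.24). The same held for Mt2, at 2.86 ± 0.89 on HFD, and Mt1, at 1.86 ± 0.74. Of 27 macrophage markers 14 and of 26 acute phase genes 7 had a lower value on HFD, beside 1.98% of all genes, and the median HFD log2 fold changes of the lists were 0.12 and 0.43.

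On the other side stood lipid genes. Elovl6 was higher in KO on HFD at log2 1.18 ± 0.31 (edgeR adjusted p = 0.027), a difference of 2.31 ± 0.51 from chow (adjusted p = 0.012), and the lipase-like Pnpla3 was at 2.52 ± 0.56 on HFD with a difference of 3.56 ± 0.97. Insig1 and Sc5d were at 0.13 and 0.22 on HFD, neither called there, with differences of 1.20 and 0.98. Of 20 fatty acid synthesis genes 6 had a higher KO minus HET value on HFD than on chow, beside 0.822% of all genes. Akr1d1 and Ces1e, low in every chow KO library, were at -0.06 and -0.31 on HFD (differences 1.01 ± 0.24 and 1.08 ± 0.26).

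**Figure D4:**
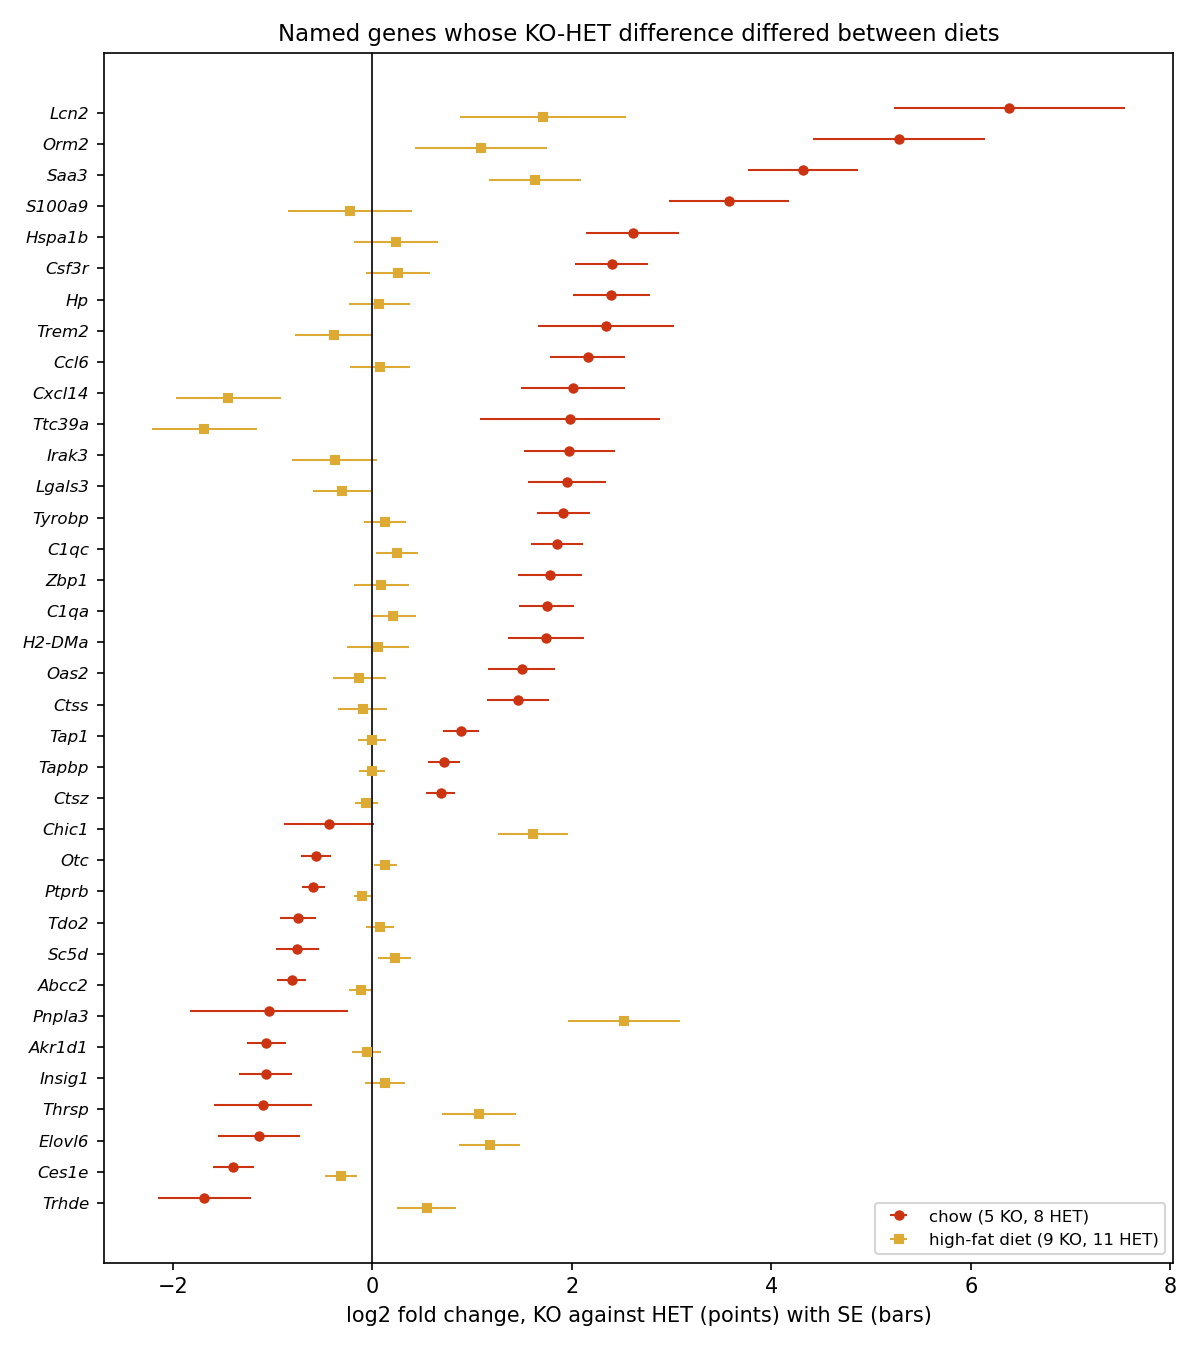
Log2 fold change of KO against HET on chow and on HFD for 36 named genes whose difference between diets was called. Saa1, Saa2, Mt1 and Mt2, whose difference was not called, are not shown. Points are estimates and bars their SE, and 0 means equal levels in KO and HET. Most immune and acute phase genes lie to the right on chow and near 0 on HFD; the HFD values of Saa3, Lcn2 and Orm2 lie between 1.09 and 1.71, and that of Cxcl14 is -1.44.

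Gonadal fat of the same mice, matched by the mouse number in the labels, was measured for all 8 HET mice and for the mice of KO liver libraries 2 to 5. Saa3 in fat was at 10886 CPM in KO mouse 2, 1477 in mouse 3, 11.4 in mouse 4 and 6315 in mouse 5, and at 5.84 to 208 CPM in the HET mice, with HET mouse 6 the highest. Lcn2 in fat was at 1249.7, 272, 11.9 and 545.15 CPM in the same 4 KO mice and at 5.62 to 69.2 in HET mice. Tyrobp was at 562, 170.5, 105 and 278 CPM in KO and 44.4 to 156 in HET. So KO mice 2, 3 and 5, high in liver, lay above every HET mouse in fat for these 3 genes, and KO mouse 4 lay inside the HET range in both tissues for Lcn2 and Tyrobp. The mouse of KO liver library 1 has no fat library among those used here. No test was made across the tissues.

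**Figure D5:**
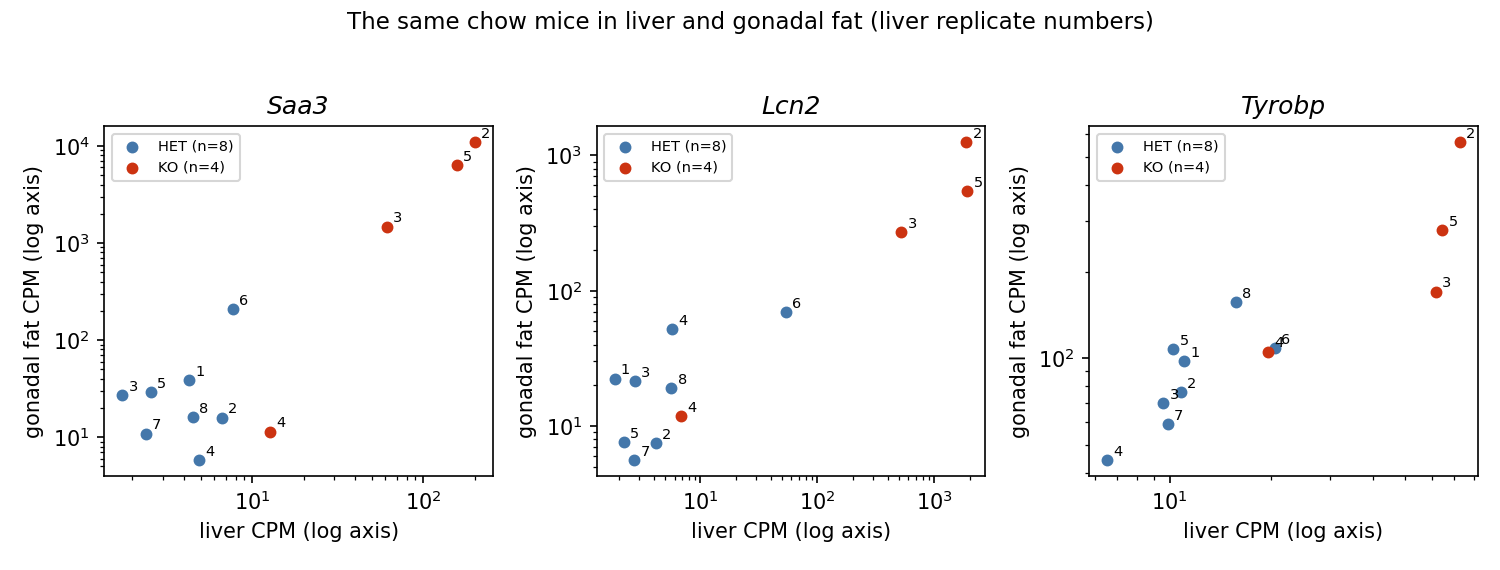
Levels of Saa3, Lcn2 and Tyrobp in liver (horizontal, CPM, log axis) and in gonadal fat (vertical, CPM, log axis) of the same chow-fed mice. Each point is 1 mouse, 8 HET and 4 KO, marked with its liver replicate number. KO mice 2, 3 and 5 lie at the upper right in each panel.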

How the data were processed

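The deposited liver table holds raw read counts per Ensembl gene, made by the authors. Libraries were stranded mRNA libraries read as single 50-base reads, from RNA of integrity above 7, per the labels' protocols. The submitters' processing notes name STAR 2.5.1b, featureCounts 1.5 and GRCm38.p5. Which annotation, options and strand setting were used is not given in the sources used here, so reads of near-identical genes (Saa1 and Saa2, orosomucoids, Cyp4a, Cyp2b, Cyp2c, Gsta, Hspa1b, class II genes) and of overlapping genes may be split or lost. Symbols were found for 25723 of 25759 genes in a GRCm38 annotation.

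The analysis used edgeR 4.0.16 in R 4.3.3: filterByExpr (minimum count 10, minimum total 15), TMM scaling and the two-sided quasi-likelihood test over 46 liver libraries on chow and HFD, with Benjamini-Hochberg adjustment over all genes tested and calls at an adjusted p under 0.05. Each SE is the absolute log2 fold change over the root of its F statistic. CPM use TMM-scaled library sizes. Summed marker levels were compared on log2(CPM + 0.5) by exact permutation. No pair of libraries within a chow group agreed within sampling noise: over 38 pairs the spread was at least 2.39 times that of sampling. The test was tried on simulated counts. One gonadal column without a labelled sample was not used.

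The comparison, the 39 gene lists and the rule for named genes were chosen with earlier results of these data known. The rule takes Pepd, the 12 called genes that rose most and the 12 that fell most on the log2 scale, given at least 1 CPM in a group, up to 3 called members of each list by adjusted p, 8 genes by p in the 13-library fit and 5 each way for the difference between diets, predicted genes left out; it names 95 genes, of which 3 are not reported here. Other list members are named to complete counts and were chosen after their values were seen. Alternatives were DESeq2 1.42.0, RLE size factors, other filters, other sets of libraries, the replicate number as a block, the series of mouse numbers as a covariate, robust dispersions, limma 3.58.1 voom with weights per group, each library left out and an adjusted p under 0.01; leaving out the 4 muscle-rich libraries was added after the data were seen.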

Additional observations from a re-analysis of the deposited data

Results flagged for a closer look

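In groups of 5 to 8 libraries, 184 tests for a single outlying library were made over 92 named genes, and chance flags about 1 in 20 groups. They marked 30 values, 19 in HET and 11 in KO. HET library 6 stood apart, as the highest of its group, in 13 genes: Saa2 at 315 CPM, Lcn2 at 53.5, Saa1 at 734, Mt2 at 27.6, Orm2 at 98, Mt1 at 38.5, Prtn3 at 3.54, Hp at 4560.3, Socs3 at 19, Lgals3 at 8.62, Ctss at 65.5, Coro1a at 15.7 and C4b at 2418 CPM. These genes share the libraries and are not independent. KO library 2 stood apart as the highest for Hspa1b at 56.1 CPM, P4ha1 at 42 and Hsph1 at 126.

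The muscle-rich libraries gave further single values. In HET library 1 Srl was at 62.9 CPM, Myom1 at 77 and Pygm at 32.2. In KO library 5 Srl and Myom1 were both at 6.21 CPM and Ak1 and Pygm both at 3.11. Ttc39a was at 12.4 CPM in KO library 5 and 2.25 in HET library 8. Other single libraries were KO 3 for Chic1 (7.3 CPM) and Elovl6 (45.6, the lowest), KO 4 for Cd36 (84.7), HET 8 for Pnpla3 (68.3) and HET 7 for Cc2d2b (8.17).

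The KO minus HET value differed between HFD and chow in 36 named genes by the edgeR test of the difference. On the log2 scale the HFD value was lower for immune and acute phase genes: Lcn2 (-4.68), Orm2 (-4.19), S100a9 (-3.80), Cxcl14 (-3.46), Trem2 (-2.73), Saa3 (-2.69), Irak3 (-2.35), Hp (-2.33), Lgals3 (-2.25), Csf3r (-2.14), Ccl6 (-2.08), Tyrobp (-1.79), H2-DMa (-1.69), Zbp1 (-1.69), Oas2 (-1.63), C1qc (-1.61), Ctss (-1.56), C1qa (-1.54), Tap1 (-0.89), Ctsz (-0.75) and Tapbp (-0.71). It was also lower for Ttc39a (-3.66) and Hspa1b (-2.37). It was higher for Pnpla3 (3.56), Elovl6 (2.31), Trhde (2.23), Thrsp (2.16), Chic1 (2.05), Insig1 (1.20), Ces1e (1.08), Akr1d1 (1.01), Sc5d (0.98), Tdo2 (0.82), Otc (0.70), Abcc2 (0.69) and Ptprb (0.49).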

How the results depend on the processing

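Counts of called genes are given here as the percent of genes tested, beside 13.5% (7.91% higher, 5.61% lower) in the fit as reported. RLE size factors gave 13.5% (7.38% higher, 6.16% lower), DESeq2 14.1%, no filter on low counts 7.45% of 16883 genes (4.08% higher, 3.37% lower; 1258 genes in all, against 1496), robust dispersions 13.4% and the series of mouse numbers as a covariate 14.1%. The count moved by more than 1.5 times with the 13 compared libraries (5.56%; 3.62% higher, 1.94% lower), the 18 chow libraries (6.86%; 4.76% and 2.11%), voom with weights per group (6.49%; 3.85% and 2.64%), an adjusted p under 0.01 (4.37%; 3.06% and 1.31%) and without the muscle-rich libraries (2.89%; 1.80% and 1.09%). With all 12 liver groups the lower genes made 7.97%. The cause of these shifts was not tested. Fewer libraries entered 3 of the fits with lower counts, and the part of library number was not tested either. Leaving out each library gave 4.23% to 18.6% called, 2.7% to 10.5% higher and 1.53% to 8.21% lower, with the lower genes also moving by over 1.5 times without HET library 5 (407 genes). The difference between diets was called in 2.8% of genes, in 1.21% with no filter on low counts (0.847% lower), and in 0% to 6.05% with each chow KO library left out (0% to 2.08% higher, 0% to 3.97% lower).

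Numbers do not pair mice: same-numbered KO and HET libraries had correlations of -0.06, -0.13, -0.35, -0.09 and -0.28, and no KO library correlated best with its own number. The replicate block gave 12.0% called genes, and 1.82% for the difference (0.389% higher). Myom1 was the only named gene to reverse, at 0.23 on the log2 scale without the muscle-rich libraries. Of 90 called named genes, 57 were called with 13 libraries, 47 in all refits that left out 1 library and 31 under all alternatives at the 0.05 threshold that tested them. S100a9, 1 of the 31, was tested in 24 of 26 refits and not in the 13-library fit. These 31 include Pepd, Saa2, Saa3, Lcn2, Hp, Mt1, Tyrobp, C1qc, Zbp1, Akr1d1, Insig1, Ces1e, Fmo4 and Kdr. KO library 5 had the lowest total (1314912), which limits its low genes.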

Other observations

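Pepd RNA in gonadal fat of the mice of KO liver libraries 2, 3, 4 and 5 was at 9.02, 24.6, 33.6 and 6.48 CPM, against 43.8 to 68.9 CPM in the 8 HET mice. The KO mouse with the most Pepd RNA in fat, number 4, had the lowest Saa3 (11.4 CPM) and Lcn2 (11.9 CPM) of the 4 in fat, and these values are descriptions of 4 animals without a test. Liver did not have this order. There mouse 4 had Pepd at 0.568 CPM and Saa3 at 12.8. Mouse 5 had the most Pepd in liver, 3.11 CPM, with Saa3 at 158 and Lcn2 at 1918. S100a9 in fat was at 233, 13, 0.65 and 202 CPM in KO mice 2, 3, 4 and 5, and at 0.56 to 2.35 CPM in HET mice. Mt2 in fat was at 753, 371, 104 and 548 CPM in these KO mice and at 492.8 CPM in HET mouse 6, which also had the highest HET level of Mt2 in liver. Insig1 in fat was at 46.3, 91.3, 126 and 41.5 CPM in KO and 101 to 311 CPM in HET.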
